A study of Mus musculus with 2 samples.

Results

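The genes described here are 8 members of the MHC class II antigen presentation pathway, of 28692 genes in the tables. They were chosen by name and not by a rule on their values, although earlier results of these data were known. The members are the chain genes H2-Aa, H2-Ab1 and H2-Eb1, the peptide-loading genes H2-DMa and H2-DMb1, the invariant chain gene Cd74, the transactivator gene Ciita and the protease gene Ctss. All 8 were present in both libraries. The data were single-cell RNA counts (10x Genomics 3′ chemistry) of the stromal vascular fraction of gonadal white adipose tissue (gWAT), that is, the cells left after the adipocytes of a collagenase digest are removed. A single library came from Adipo-Pgam1 KO mice, in which Adipoq-Cre deletes floxed Pgam1 in adipocytes, and the other from littermate control mice, which carry floxed Pgam1 without Cre and are labelled wildtype. Both were from male C57BL/6 mice aged 13 weeks. The question addressed here was which cells of this tissue carry class II transcripts, at what level, and whether the levels differed between the 2 libraries.

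MHC class II molecules present peptides from engulfed proteins to CD4+ T cells. In an antigen-presenting cell the α and β chains assemble with the invariant chain, which blocks the peptide groove until cathepsin S and other lysosomal proteases cut it down, and the DM heterodimer then exchanges the remaining fragment for a peptide. Transcription of these genes depends on CIITA, which is recruited to a shared promoter module, and dendritic cells, B cells and macrophages are the cells best known for it.

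The 8 genes lie at 4 places in the mouse genome (GRCm38). H2-Aa (chr17:34282744-34287823, minus strand), H2-Ab1 (chr17:34257689-34269419, plus strand), H2-Eb1 (chr17:34305867-34316674, plus strand), H2-DMa (chr17:34119541-34139101, plus strand) and H2-DMb1 (chr17:34153072-34160230, plus strand) lie together in the MHC. Cd74 (chr18:60803848-60812652, plus strand), Ciita (chr16:10480059-10528418, plus strand) and Ctss (chr3:95526786-95556403, plus strand) lie elsewhere.

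With 1 library per genotype there is no spread between mice, so no test between genotypes was possible. Each value below is a UMI count summed over the cells of a class and expressed per 1000000 UMIs of those cells (CPM), with an exact 95% interval that covers counting error only. The labels do not say how many mice went into a library. After filtering, the control library held 3616 cells and the KO library 937, with median UMI counts per cell of 6898 and 7494, and no cell barcode was shared between them. Pgam1 was at 99.3 CPM in the control library and 91.5 CPM in the KO library over all barcodes. Mature adipocytes are removed from this preparation, although stromal cells with Adipoq-Cre activity, such as preadipocytes, may carry the deletion. Clustering without the class II genes gave 24 clusters, of which 19 were named from fixed markers as 15 classes. A class name means that the markers of that type scored highest in the cluster, and it is written with "-like". In 4 of the 19 named clusters, 1 macrophage-like, 2 fibroblast-like and 1 T-like, no listed marker was among the 10 leading genes. Genes of red cells, fibroblasts and other types had UMIs in every antigen-presenting class, and their summed values are given with the KO to control ratios of each such class.

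RefSeq promoter windows of 300 bases (250 before and 50 after the annotated start, GRCm38.p6) were matched for 5 of the 8, and H2-Ab1, Cd74 and Ciita are named only. The 100 bases that end 11 bases before the start are shown for 2 chain genes, since both hold letters of the X and Y boxes that define the class II promoter module, and for Ctss, which holds neither. The capitals mark CTNGNAAC (X type) and then TGATTGG (Y type) in the chain genes, and the interferon-response type, GAAA 2 bases before a second GAAA, in Ctss.
H2-Aa, chr17:34287834-34287933, minus strand: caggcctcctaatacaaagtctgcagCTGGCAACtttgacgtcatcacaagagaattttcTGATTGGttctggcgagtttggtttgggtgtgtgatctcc
H2-Eb1, chr17:34305757-34305856, plus strand: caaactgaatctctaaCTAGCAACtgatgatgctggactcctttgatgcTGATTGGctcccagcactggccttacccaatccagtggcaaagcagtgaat
Ctss, chr3:95526676-95526775, plus strand: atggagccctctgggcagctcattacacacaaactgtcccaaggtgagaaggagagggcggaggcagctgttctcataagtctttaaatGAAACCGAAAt

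On either strand, CTNGNAAC was found in 13.2% of all 32851 promoter windows, TGATTGG in 7.82% and the interferon-response letters in 3.44%. The X-type letters followed by the Y-type letters on the same strand, with starts 15 to 45 bases apart, were found in 17 windows (0.0517%). These 17 included H2-Aa, H2-Eb1 and H2-DMb1, and also H2-Ob, which encodes a chain of DO, an inhibitor of DM. The starts were 34 bases apart in H2-Aa, 33 in H2-Eb1 and 34 in H2-DMb1. None of the 3 motifs was found in either window of H2-DMa. Its windows were at annotated starts chr17:34122832 and chr17:34125518, inside the gene span given above, so the bases before that span were not read. The letters were chosen after the promoter windows had been read, so the match is a description of them only.

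The chain genes and Cd74 were at their highest in type 2 dendritic-like cells (186 control and 39 KO cells, led by Ccl22, Ccl17 and Cd209a), followed by type 1 dendritic-like cells (72 and 26, led by Xcr1, Sept3 and Irf8), macrophage-like cells (649 and 94, clusters led by Folr2 and by Lyz1), B-like cells (133 and 38) and nonclassical monocyte-like cells (113 and 26, led by Plac8, Gngt2 and Treml4). Cd74, the invariant chain, reached 25794 CPM in type 2 dendritic-like cells of the control library and 26578 CPM in the KO library. It was at 17340 and 19883 CPM in type 1 dendritic-like cells, 11595 and 14762 CPM in macrophage-like cells, and 8627 and 10382 CPM in B-like cells. Nonclassical monocyte-like cells had 3614 and 1658 CPM. The order of the 5 classes was thus the same in both libraries for Cd74, and it was also the same for H2-Aa, H2-Ab1 and H2-Eb1.

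**Figure D1:**
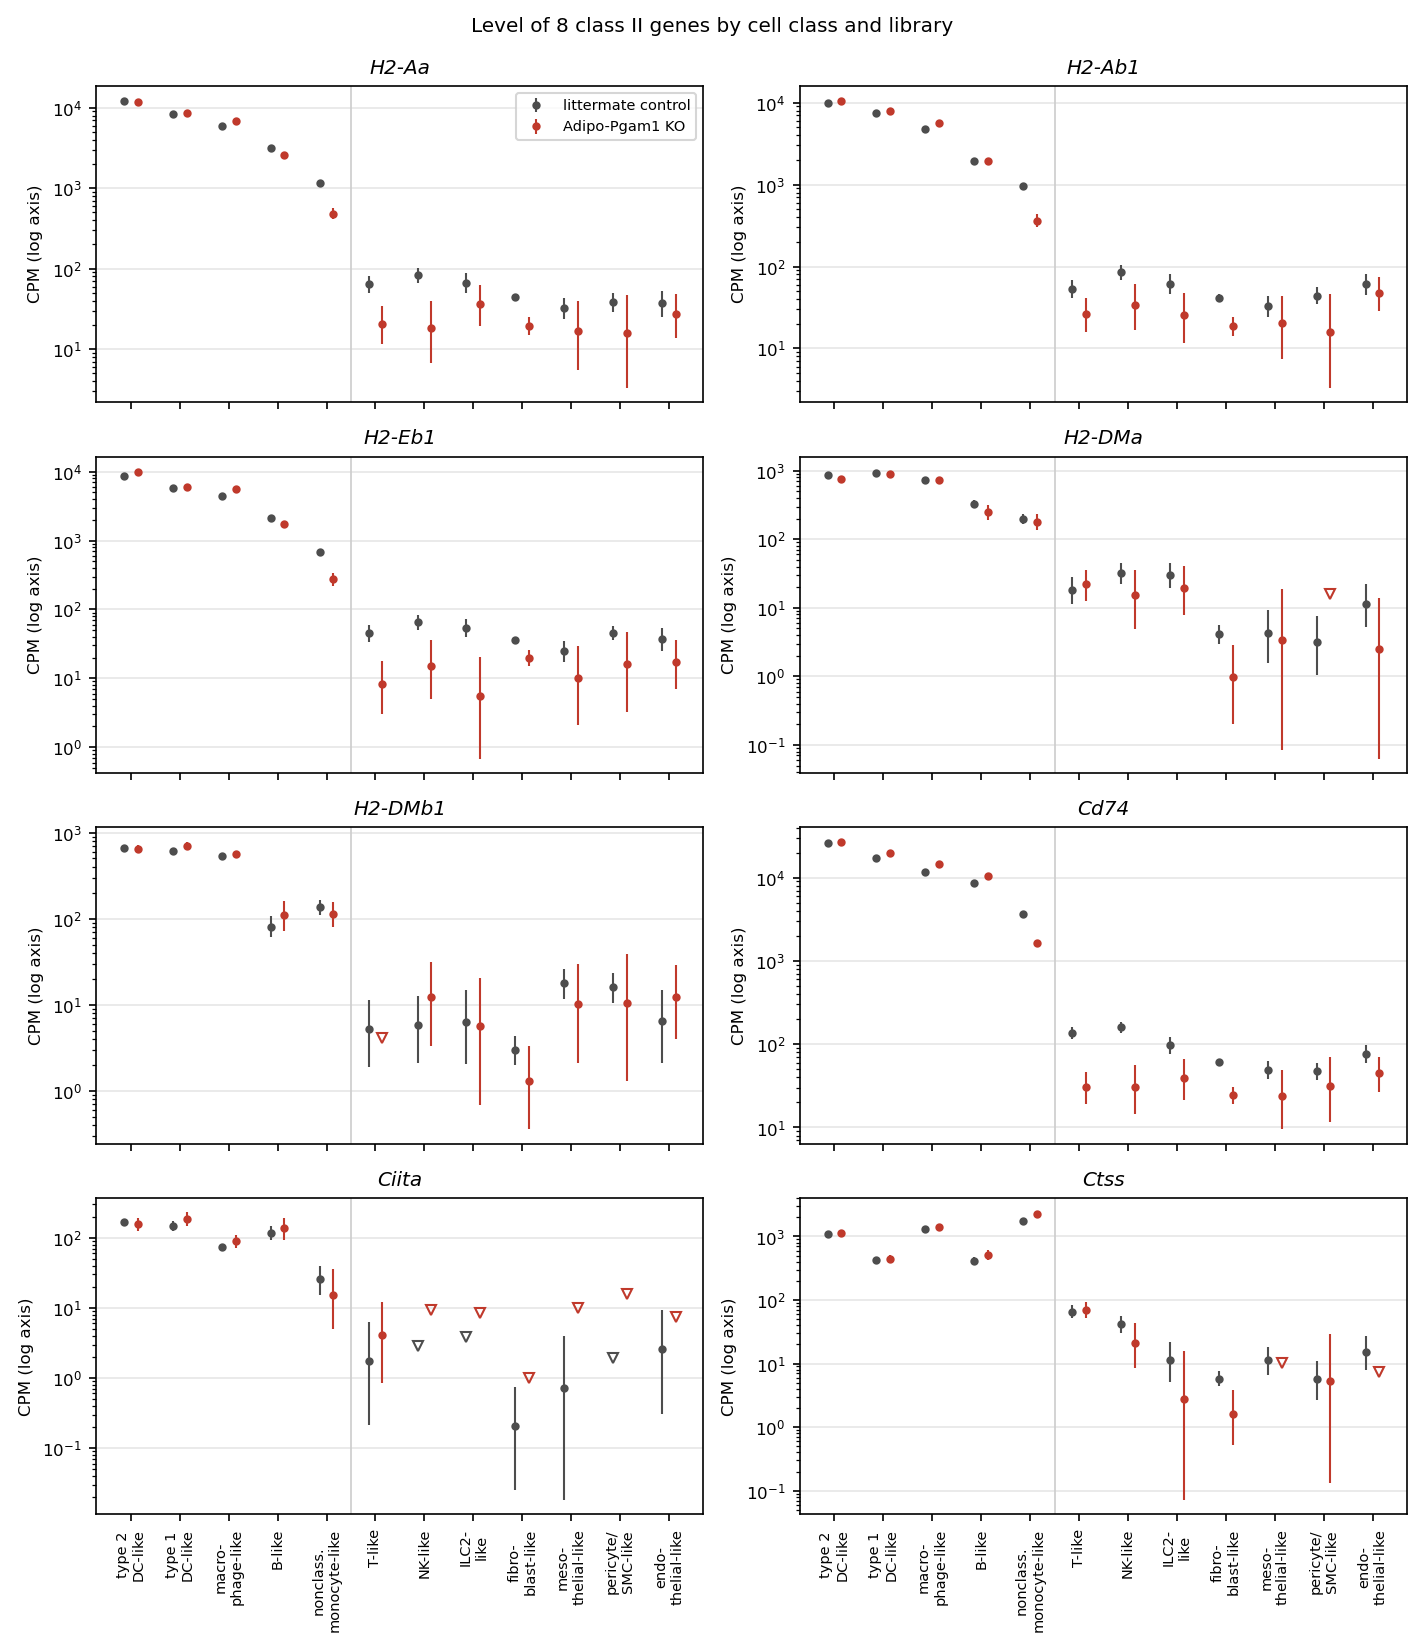
CPM of each of the 8 genes (one panel per gene, log axis) in the cell classes, for the littermate control and the Adipo-Pgam1 KO library. Points are summed UMI levels, bars the exact 95% counting interval, and open triangles mark the level of 3 UMIs where none was counted. The dendritic-, macrophage- and B-like classes stood far above the non-immune classes for all 8 genes, and Ctss alone was highest in nonclassical monocyte-like cells.

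The chain genes separated the antigen-presenting classes in steps. H2-Aa, the α chain of I-A, was at 12226 and 11833 CPM in type 2 dendritic-like cells, 8488 and 8652 in type 1, 5988 and 6807 in macrophage-like, 3196 and 2594 in B-like and 1171 and 483 in nonclassical monocyte-like cells (control and KO library in each case). H2-Ab1, its β chain partner, ran from 9930 and 10400 CPM in type 2 dendritic-like cells to 1965 and 1920 CPM in B-like cells. H2-Eb1, the β chain of I-E, ran from 8787 and 9941 CPM to 2151 and 1754 CPM over the same classes. Between the 2 dendritic classes the chains and Cd74 were 1.32- to 1.51-fold higher in type 2 in the control library and 1.33- to 1.65-fold higher in the KO library, and no interval included 1. The median difference over the 8 genes between type 2 dendritic-like and macrophage-like cells was 1.02 on the log2 scale in the control library and 0.79 in the KO library.

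The loading genes followed another order. H2-DMa, the α chain of DM, was at 920 and 896 CPM in type 1 dendritic-like cells and at 862 and 749 CPM in type 2, a log2 difference of type 2 minus type 1 of -0.09 (-0.21 to 0.02) in the control library and -0.26 (-0.46 to -0.06) in the KO library. The dendritic type with the higher chains therefore did not have the higher H2-DMa. H2-DMb1, the β chain of DM, was at 663 and 643 CPM in type 2 and 606 and 701 CPM in type 1 dendritic-like cells, with both intervals of the difference including 0. In macrophage-like cells H2-DMb1 was at 536 and 565 CPM, against 81.1 and 111 CPM in B-like cells, a 6.60-fold difference in the control library and a 5.10-fold difference in the KO library. The near-identical neighbour H2-DMb2 showed the reverse, with 365 and 401 CPM in B-like cells and 62.7 and 60.1 CPM in macrophage-like cells. Reads that fit both copies may have been split or dropped by the counting, so the share of each copy is uncertain.

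Ciita, the transactivator, was at low counts throughout. It was at 169 and 155 CPM in type 2 and 147 and 187 CPM in type 1 dendritic-like cells, and these neighbours did not differ beyond counting error in either library. B-like cells had 117 and 137 CPM and macrophage-like cells 73.8 and 89.8 CPM. B-like cells, with lower chain levels than macrophage-like cells, thus had the higher Ciita level, with a log2 difference of macrophage minus B of -0.67 (-1.02 to -0.29) in the control library and -0.61 (-1.20 to 0.02) in the KO library. Per 1000 chain UMIs, B-like cells held 16.0 and 21.8 Ciita UMIs, against 4.90 and 4.98 in macrophage-like and 5.47 and 4.83 in type 2 dendritic-like cells. No Ciita UMI was counted in NK-like or group 2 innate lymphoid-like cells.

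Ctss, the cathepsin that trims the invariant chain, had an order of its own. It was highest in nonclassical monocyte-like cells at 1730 and 2217 CPM, then macrophage-like cells at 1311 and 1433 CPM and type 2 dendritic-like cells at 1084 and 1144 CPM. Type 1 dendritic-like cells were at 429 and 441 CPM and B-like cells at 416 and 508 CPM, and their intervals overlapped in both libraries. Type 2 dendritic-like cells were 2.53-fold (control) and 2.60-fold (KO) above type 1 for Ctss, the widest difference between the dendritic classes among the 8 genes. Across the 24 clusters of the control library, Ctss had the lowest correlation with the mean log2 level of the other 7 genes, Pearson's r = 0.886, against 0.956 to 0.995 for the other 7, all within 1 library and as a description only.

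The proportions of the transcripts to one another differed between classes. For each chain UMI (H2-Aa, H2-Ab1 and H2-Eb1 summed), Cd74 gave 0.834 and 0.826 UMIs in type 2 dendritic-like cells, 0.794 and 0.883 in type 1, and 0.770 and 0.818 in macrophage-like cells. In B-like cells it gave 1.18 and 1.66, and in nonclassical monocyte-like cells 1.28 and 1.48. B-like and monocyte-like cells thus held more invariant chain message for each chain message than the dendritic- and macrophage-like classes did. Ctss ranged more widely, from 1.96 UMIs per 100 chain UMIs in type 1 dendritic-like cells of both libraries, through 3.50 and 3.56 in type 2 and 8.70 and 7.95 in macrophage-like cells, to 61.3 and 198 in nonclassical monocyte-like cells. The DM genes together gave 4.93 and 4.33 UMIs per 100 chain UMIs in type 2 and 6.99 and 7.09 in type 1 dendritic-like cells.

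Class II transcripts were also counted, at a low level, in the non-immune classes. In fibroblast-like cells (784 and 188), H2-Aa was at 44.2 CPM in the control library and 19.7 CPM in the KO library, and Cd74 at 60.9 and 24.6 CPM. Ciita had 2 UMIs in control fibroblast-like cells and 0 in KO ones. Over all non-immune classes pooled, the antigen-presenting classes pooled stood 168-fold higher for H2-Aa in the control library and 358-fold higher in the KO library, 242- and 607-fold higher for Cd74, and 168- and 817-fold higher for Ctss. The proportions in fibroblast-like cells were near those of the pooled antigen-presenting cells for chain UMIs per UMI of 6 abundant myeloid genes, at 1.62 and 1.55 against 1.47 and 1.45. They were not near for Cd74 per chain UMI, at 0.501 and 0.421 against 0.811 and 0.863. Without thinning, 34.6% of the control fibroblast-like cells and 25% of the KO ones had an H2-Aa UMI. After thinning to 2000 UMIs per cell, 7.89% and 5.38% did, which is the background against which any share of cells is to be read. At the same thinning, 86.2% and 87.2% of macrophage-like cells had an H2-Aa UMI.

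The low level itself differed between the libraries. In fibroblast-like cells 6 of the 7 members with a ratio lay below the control beyond counting error, where 19.9% of all genes did, and 6 were at least 2-fold lower, where 1.69% of all genes were, although H2-DMa and H2-DMb1 had fewer than the 50 UMIs asked of a tested gene. Their median log2 ratio was -1.20, against -0.10 over all 10586 genes tested. This was not particular to the members. Of the 6 abundant myeloid genes, C1qb (-1.58), Tyrobp (-1.48), C1qc (-1.45), C1qa (-1.26) and Lyz2 (-0.87) were also lower in KO fibroblast-like cells. The interval of Fcer1g (-0.15) included 0. The members' medians had the same direction in T-like (-1.04), NK-like (-1.34), group 2 innate lymphoid-like (-1.08), mesothelial-like (-0.89), pericyte and smooth muscle-like (-1.27) and endothelial-like (-0.63) cells. In mesothelial-like and in pericyte and smooth muscle-like cells no single member lay below beyond counting error, and in endothelial-like cells 2 did. The pericyte and smooth muscle-like median was over 5 members. These classes share a library and any free RNA in it, so they are not separate observations.

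H2-DMa exceeded this low level in T-, NK- and group 2 innate lymphoid-like cells, and Ctss in T- and NK-like cells. H2-DMa was at 18.2 and 22 CPM in T-like cells, 31.9 and 15.3 CPM in NK-like cells and 30.3 and 19.7 CPM in group 2 innate lymphoid-like cells, against 4.14 and 0.983 CPM in fibroblast-like cells. In T-like cells this was a log2 difference of 2.14 (1.30 to 2.93) for control cells and 4.49 (2.68 to 6.91) for KO cells. Ctss was at 66 and 70.2 CPM in T-like cells, 11.4- and 42.8-fold above fibroblast-like cells, and at 41.6 and 21.5 CPM in NK-like cells. In group 2 innate lymphoid-like cells Ctss had 9 and 1 UMIs, with intervals of the difference that included 0. The chains lay closer to the fibroblast level. In the control library H2-Aa was 1.45-fold above it in T-like, 1.88-fold in NK-like and 1.51-fold in group 2 innate lymphoid-like cells, and H2-Ab1 2.06-fold in NK-like cells, all beyond counting error. The 10% of control cells with the most held 56.1% of the chain and Cd74 UMIs in T-like and 57.3% in NK-like cells. That share was 36.9% in group 2 innate lymphoid-like and 44.0% in fibroblast-like cells. Of the 239 NK-like cells, 5 lay between 5000 and 20000 CPM and 85 were at 0. In the KO library the intervals of H2-Aa and H2-Ab1 included 0 in the same classes, and H2-Eb1 in T-like cells was lower, at 8.26 CPM against 20.0 CPM. H2-DMb1 was above the fibroblast level in mesothelial-like cells, at 17.8 and 10.1 CPM against 3.00 and 1.31 CPM, and in pericyte and smooth muscle-like cells, at 16.0 and 10.6 CPM, but with few UMIs in the KO library.

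In the KO library, macrophage-like cells had higher class II levels than in the control library. Above the control beyond counting error lay 5 of the 8 genes, and none lay below, where 8.5% of all 8775 genes tested lay above and 13.2% below. The largest differences were in Cd74, 11595 CPM in the control and 14762 CPM in the KO library (log2 ratio 0.35, 0.32 to 0.37), and H2-Eb1, 4369 and 5536 CPM (0.34, 0.30 to 0.38). H2-Ab1 (4711 and 5694 CPM, 0.27), H2-Aa (5988 and 6807 CPM, 0.18) and Ctss (1311 and 1433 CPM, 0.13) followed. H2-DMa was at 722 and 724 CPM, and the intervals of H2-DMa, H2-DMb1 (0.08) and Ciita (0.28, -0.05 to 0.60) included 0. The median log2 ratio over the 8 genes was 0.23, against -0.10 over all genes tested, and no member reached 2-fold, as 1.58% of all genes did upward and 4.98% downward. With the clusters weighted as in the control the median was 0.21.

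The 2 macrophage-like clusters did not carry this difference alike. One, cluster 1, was led by Folr2, Pf4 and Cbr2, which mark resident macrophages, and the other, cluster 2, had Lyz1, Mmp12, Ear2 and Retnla among its leading genes. Cluster 1 held 54.7% of control macrophage-like cells (50.8 to 58.6, exact binomial) and 34.0% of KO ones (24.6 to 44.5). Within the control library, cluster 2 had the higher level of every member, from 1.34-fold for H2-Aa to 2.63-fold for H2-DMa. In cluster 1, 7 of the 8 genes lay above the control beyond counting error, where 6.34% of all genes did, with a median log2 ratio of 0.50 against -0.12 over all genes. There Cd74 was at 9233 and 13943 CPM (0.59, 0.55 to 0.64), H2-Eb1 at 3515 and 5339 CPM (0.60) and Ciita, from 135 and 33 UMIs, at 55.3 and 112 CPM (1.01, 0.42 to 1.57). Ciita in cluster 1 was thus past 2-fold, as 2% of genes were. In cluster 2, 4 genes lay above and 1 below, where 8.11% and 9.38% of genes did, and the median was -0.01, with Cd74 at 13111 and 15070 CPM (0.20) and H2-DMa lower, at 952 and 802 CPM (-0.25, -0.37 to -0.12). The KO part of cluster 1 was 32 cells.

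Other transcripts moved with the macrophage-like class. The summed level of 8 fibroblast markers, none at 0 in either library, was 373 CPM in the control and 177 CPM in the KO library, and that of 4 erythroid genes was 4973 and 1712 CPM. Lyz2 was at 8403 and 12823 CPM. The 9 macrophage markers summed to 8569 and 8017 CPM. Single markers went both ways, with C1qa at 2047 and 1869 CPM and C1qb at 1837 and 1961 CPM. Pgam1 itself was at 142 and 204 CPM in these cells. The part of these differences in the class II values was not tested.

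**Figure D2:**
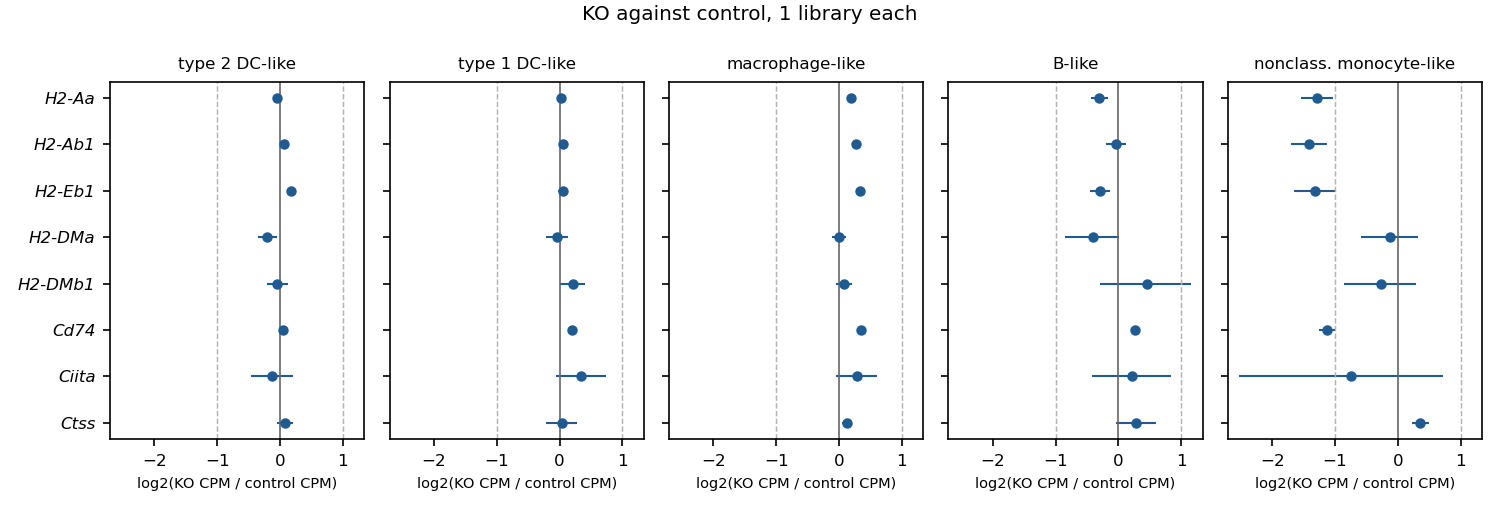
Log2 ratio of the KO over the control library for the 8 genes in the antigen-presenting classes, with the exact 95% counting interval as bars and 2-fold marked by dashed lines. The chains and Cd74 lay above 0 in macrophage-like cells and beyond 2-fold below in nonclassical monocyte-like cells, while dendritic-like cells stayed near 0.

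Dendritic-like cells were nearly level between the libraries. In type 2, Cd74 was at 25794 and 26578 CPM (0.04), H2-Eb1 at 8787 and 9941 CPM (0.18, 0.14 to 0.22) and H2-DMa at 862 and 749 CPM (-0.20, -0.35 to -0.05). Beyond counting error 3 genes lay above and 2 below the control, where 7.7% and 8.92% of genes did, and the median was -0.00 against -0.05 over all 5989 genes. In type 1, Cd74 was at 17340 and 19883 CPM (0.20, 0.16 to 0.23) and H2-DMb1 at 606 and 701 CPM (0.21, 0.01 to 0.41). In this class 3 genes lay above and none below, where 11.2% and 9.41% of genes did, and the median was 0.06 against 0.01 over all 3613 genes. No member was past 2-fold in either type, as 1.15% (type 2) and 1.72% (type 1) of genes were upward and 3.47% and 2.24% downward. Without the 10 cells with the most member UMIs of each library, H2-Ab1, Cd74 and H2-Eb1 lay lower in the KO library in type 2 (-0.25, -0.22 and -0.09), and H2-Ab1 did in type 1 (-0.12). These were 10 of 39 KO but 10 of 186 control cells in type 2, and 10 of 26 and 10 of 72 in type 1. The KO library thus lost the larger part of its highest cells, and the direction of these values cannot be read as a difference between the libraries. In type 2, erythroid genes summed to 2168 CPM in the control and 542 CPM in the KO library, fibroblast markers to 300 and 116 CPM and macrophage markers to 756 and 542 CPM, with C1qa at 49.3 CPM in the control and at 0 in the KO library. In type 1, erythroid genes summed to 503 and 623 CPM and fibroblast markers to 200 and 109 CPM. The mature dendritic marker list stood at 200 CPM in the control and 734 CPM in the KO library in type 1, with 4 of its 8 genes at 0 in the KO library, and the part of these lists was not tested.

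Within the type 2 dendritic-like class, cells with a Ccr7 UMI (21 control, 11 KO), the receptor that directs dendritic cells to lymph nodes, had lower levels of most members than cells without (165 and 28). H2-DMb1 differed most, by -2.53 (control) and -1.82 (KO) on the log2 scale, then H2-DMa by -2.0 and -0.98. H2-Ab1 differed by -1.42 and -0.70, Cd74 by -1.04 and -0.53, and H2-Aa by -0.99 and -0.39. The loading genes thus differed by more than the chains and Cd74 did in both libraries. Ctss differed by -0.48 in the control and by -0.02 (-0.29 to 0.24) in the KO library, and Ciita by -1.05 and 0.39 (-0.33 to 1.06). Fscn1, a bundling protein of mature dendritic cells, was at 1377 CPM in control cells with Ccr7 and 2.97 CPM in those without, and at 1013 and 11 CPM in the KO library. Ccl22, a chemokine of mature dendritic cells, was at 7185 and 188 CPM in the control, but at 291 and 549 CPM in the KO library. Cd209a ran the other way, at 21.7 and 1115 CPM in the control, and at 423 and 947 CPM in the KO library. The mix of the KO cells with Ccr7 was therefore not the same as in the control.

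In B-like cells the chains and Cd74 went in different directions. H2-Aa was at 3196 CPM in the control and 2594 CPM in the KO library (-0.30, -0.43 to -0.17) and H2-Eb1 at 2151 and 1754 CPM (-0.29, -0.46 to -0.13), while Cd74 was at 8627 and 10382 CPM (0.27, 0.20 to 0.34). H2-Ab1, at 1965 and 1920 CPM, lay between them with an interval that included 0. Only Cd74 lay above and 2 genes lay below the control beyond counting error, where 7.8% and 10.9% of 2474 genes did, and none was past 2-fold, as 1.9% were upward and 2.99% downward. The median over the 8 genes was 0.09, against -0.05 over all genes. A list of 6 plasma cell genes, none at 0, was at 2447 CPM in the control and 5215 CPM in the KO library in these cells. Fibroblast markers summed to 529 and 209 CPM, erythroid genes to 9541 and 9085 CPM and 9 macrophage markers to 99.8 and 8.53 CPM, with 1 and 7 of them at 0. The part of these lists was not tested.

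Among the antigen-presenting classes, nonclassical monocyte-like cells had the widest difference. H2-Aa was at 1171 CPM in the control and 483 CPM in the KO library, 2.43-fold lower (log2 ratio -1.28, -1.53 to -1.03), and H2-Ab1 at 969 and 363 CPM (-1.42, -1.71 to -1.13). H2-Eb1 was at 683 and 275 CPM (-1.31, -1.65 to -0.99) and Cd74 at 3614 and 1658 CPM (-1.12, -1.26 to -0.99). These 4 of the 8 genes were at least 2-fold lower, where 5.65% of the 3431 genes tested were and 3.32% were 2-fold higher. They were also the 4 that lay below beyond counting error, where 15.6% of genes did. H2-DMa, at 197 and 180 CPM, and H2-DMb1, at 136 and 113 CPM, had intervals that included 0, as did Ciita with 19 and 5 UMIs. Ctss was higher, at 1730 and 2217 CPM (0.36, 0.22 to 0.49), the only member above, where 12.6% of genes were. The median over the 8 genes was -0.93, against -0.06 over all genes.

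The UMIs behind this difference were spread unevenly over cells. The summed level of the 3 chains and Cd74 in a single monocyte-like cell had a median of 684 CPM in the control and 193 CPM in the KO library, while the 10% of cells with the most held 71.0% and 84.8% of those UMIs. At least 10000 CPM was reached by 17 of 113 control cells (15%, 9.01 to 23) and 2 of 26 KO cells (7.69%, 0.946 to 25.1), with 13 control cells and 1 KO cell between 5000 and 20000 CPM. The 2 shares had intervals that overlapped. Below 10000 CPM, Cd74 was at 1003 and 637 CPM (-0.65, -0.89 to -0.42), H2-Aa at 153 and 124 CPM with an interval that included 0, and Ctss at 1637 and 2167 CPM (0.40). At or above it, H2-Aa was higher in the 2 KO cells than in the control cells, at 5542 and 8718 CPM (0.65), as was Cd74, at 14816 and 25128 CPM (0.76), and the median over the 8 genes was 0.71. The split uses the values compared, so both parts are a description. Without the 10 cells with the most member UMIs of each library the median was -2.70, over 7 members. These were 10 of 26 KO cells but 10 of 113 control cells, so the KO library lost the larger part of its highest cells. When each cell was given equal weight, the median over the 8 genes was 0.02, so the direction of the median was not kept. The ratios of H2-Aa, H2-Ab1, H2-Eb1 and Cd74 stayed below 0 in all 10 alternatives that kept this class. Their values nearest to 0 were -0.26, -0.33, -0.11 and -0.24. Another seed and resolution 1.0 again gave 113 control and 26 KO cells, and the scaling factors moved log2 ratios by 0.08 and 0.07. Such settings could hardly have changed the sign, so the tally says little. The cells at or above 10000 CPM were not among the 10 alternatives. No class of this name was found with a looser cell filter, without doublet removal, with more doublets removed or with coarser clustering, so the values rest on the settings used.

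The monocyte-like cells of the 2 libraries also differed in their markers. The 7 nonclassical monocyte markers summed to 3863 CPM in the control and 1539 CPM in the KO library, with none at 0, and the 7 classical monocyte markers to 4989 and 8747 CPM. Treml4 was at 380 and 128 CPM and Ace at 768 and 324 CPM, while Lyz2 was at 10935 and 20268 CPM. Erythroid genes summed to 10005 and 577 CPM, fibroblast markers to 510 and 189 CPM, and the type 2 dendritic list to 213 and 131 CPM. Of Cd209a, a type 2 dendritic marker, 25 UMIs were counted in the 17 control cells past 10000 CPM, against 1 in the 96 others. Mgl2, a marker of the same list, had 0 UMIs in the 17 cells and 4 in the others. Control cells of this class had a median of 6275 UMIs and KO cells of 12990.5 UMIs. The part of these in the class II values was not tested.

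**Figure D3:**
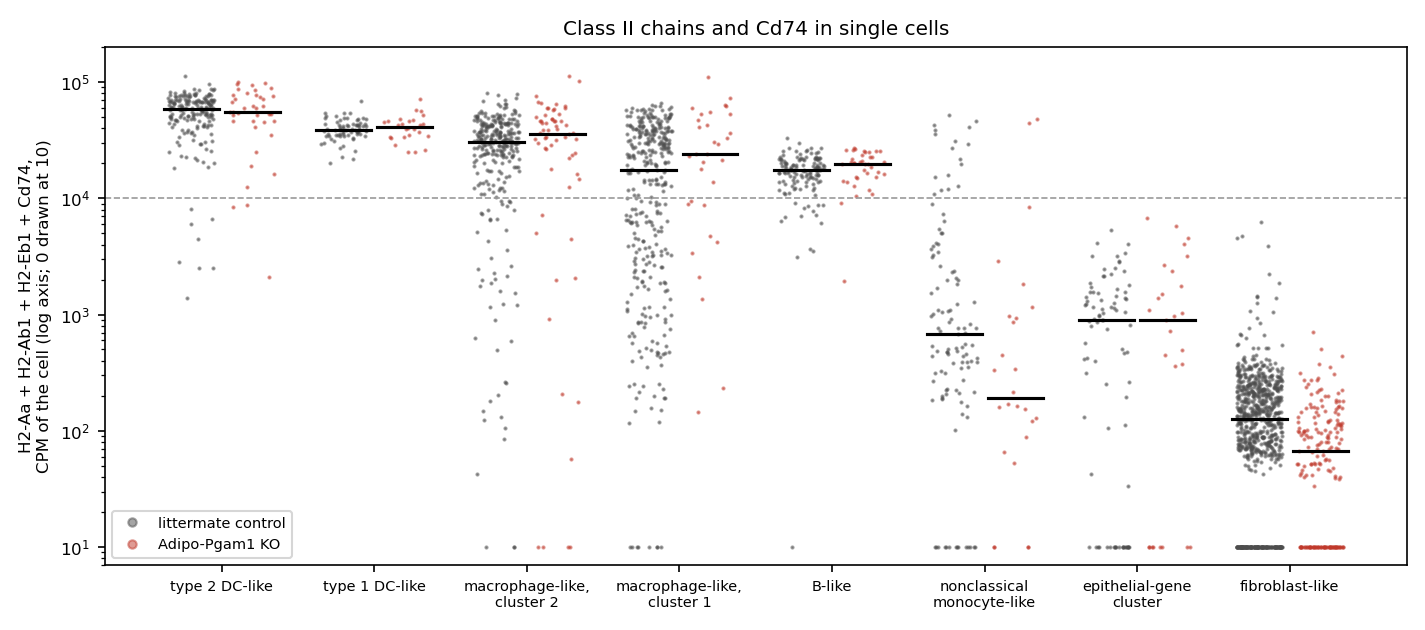
Summed level of H2-Aa, H2-Ab1, H2-Eb1 and Cd74 in single cells (CPM of each cell, log axis, cells at 0 drawn at 10) by class or cluster and library, with the median as a black line and 10000 CPM dashed. Dendritic-like cells formed 1 high group with medians from 38839 to 58939 CPM, macrophage-like cells spread over a wide range, and most nonclassical monocyte-like cells lay below 10000 CPM.

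Per cell, nearly all dendritic-like cells reached 10000 CPM of the chains and Cd74, with 72 of 72 control and 26 of 26 KO cells of type 1. The medians were 58939 and 55303 CPM in type 2, 38839 and 41283 CPM in type 1, and 17427 and 19844 CPM in B-like cells. Macrophage-like cells were mixed. In cluster 1, 58.6% of control and 68.8% of KO cells reached 10000 CPM, with medians of 17461 and 24010 CPM, and in cluster 2, 84.0% and 79.0% did, with medians of 30589 and 35987 CPM. The fibroblast-like medians were 126 and 66.5 CPM.

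An unnamed cluster with epithelial genes (Krt8, Lcn2, Mmp7 and Dcdc2a; 85 control and 27 KO cells) also held class II transcripts, and it was singled out after its values had been seen. Cd74 was at 478 CPM in the control and 1647 CPM in the KO library, 7.85- and 67.1-fold above fibroblast-like cells of the same library, and H2-Aa at 221 and 696 CPM. H2-DMa was at 39.1 and 130 CPM and H2-DMb1 at 27.9 and 114 CPM. Over the members with a ratio, the median log2 difference from fibroblast-like cells was 2.97 (control) and 5.61 (KO). Ciita had 0 and 1 UMIs, and Ctss had 34 UMIs in the control and none in the KO library. In the KO library, Lyz2 had 3 UMIs and Cd79a, Cd209a and Xcr1 had none in the cluster, so the defining genes of macrophages, B cells and dendritic cells were at or near 0 there. In the control library Lyz2 had 261 UMIs in 19 cells, of which 240 were in 1 cell that held 1 chain or Cd74 UMI. Other myeloid genes were spread over several control cells, with Fcer1g at 42 UMIs in 8 cells, Tyrobp at 38 in 6, Csf1r at 22 in 5 and C1qc at 9 in 9. C1qa had 4 UMIs and Adgre1 had 1. Of the 618 chain and Cd74 UMIs in the KO part, 593 were in 9 cells with an Epcam UMI, an epithelial adhesion molecule, and 369 were in 1 cell. Those 9 cells also held 152548 of the 183916 UMIs of the KO part. The chains and Cd74 were at 3887 CPM in them and at 797 CPM in the 18 KO cells without Epcam. In the control the 28 cells with Epcam were at 1068 CPM and the 57 without at 944 CPM. Without the cell with the most UMIs, Cd74 in the KO part was at 1441 CPM, 58.6-fold above fibroblast-like cells. The cluster depended on the cell filter. Its overlap with the nearest cluster (cells in both over cells in either) was 0.388 with a looser filter and 0.023 with a stricter one, against 0.839 to 1 under the doublet, clustering and seed alternatives.

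**Figure D4:**
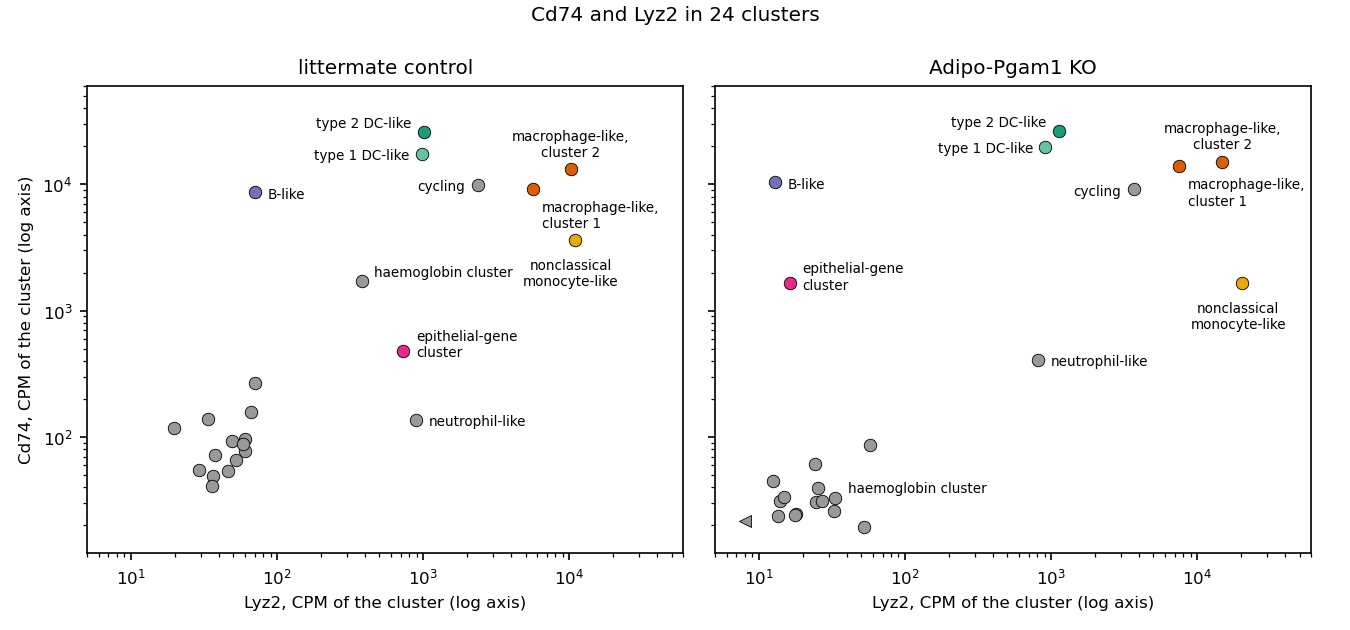
Cd74 against Lyz2 (CPM, both axes log) in each of the 24 clusters, control library on the left and KO library on the right, with a triangle where Lyz2 was 0. B-like cells and, in the KO library, the epithelial-gene cluster had high Cd74 at low Lyz2, whereas most other clusters outside the antigen-presenting classes gathered at the lower left.

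Another unnamed cluster, led by haemoglobin genes (152 control and 51 KO cells), had Cd74 at 1712 CPM in the control and 33.2 CPM in the KO library. The 10% of its control cells with the most held 94.8% of the chain and Cd74 UMIs. A cluster of cycling cells (32 and 13) had Cd74 at 9858 and 9131 CPM, and Ctss at 444 and 779 CPM (0.81, 0.55 to 1.07).

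Of 39 other pathway genes listed, 38 were found, in 6 groups. In macrophage-like cells 33 had at least 50 UMIs, none was 2-fold higher and 1 was 2-fold lower, where 1.58% and 4.98% of all genes were. The lower one was the costimulatory receptor Cd40 (18.6 and 7.40 CPM, -1.33). The costimulatory ligand Cd86, at 62.9 and 117 CPM, and Cd83, at 122 and 221 CPM, were higher without reaching 2-fold. In nonclassical monocyte-like cells 3 of 25 were 2-fold higher and none lower, all of them lysosomal genes: Ifi30, the thiol reductase that unfolds antigen (284 and 794 CPM, 1.48), Ctsd (114 and 290 CPM, 1.34) and Ctsl (39.0 and 177 CPM, 2.18). They were 3 of the 8 lysosomal genes listed, whose median was 0.44, where 3.32% of all genes were 2-fold higher. In type 1 dendritic-like cells 1 of 25 was 2-fold higher, where 1.72% of all genes were. It was Irf1, a factor between interferon-γ and Ciita (27.5 and 109 CPM, 1.98). In type 2 none of 34 was past 2-fold, where 1.15% of all genes were higher and 3.47% lower. In B-like cells 2 of 24 were 2-fold lower, where 2.99% of all genes were. They were Creb1 (143 and 68.3 CPM) and the interferon-γ receptor chain Ifngr1 (79.5 and 34.1 CPM). The medians of the list were 0.06, -0.09, 0.14, 0.06 and -0.10 in macrophage-, monocyte-, type 1, type 2 and B-like cells.

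The other class II genes marked B-like and dendritic-like cells. H2-Ob was at 362 and 371 CPM and H2-Oa, its DO partner, at 154 and 128 CPM in B-like cells. In type 1 dendritic-like cells they were at 188 and 124 CPM and at 107 and 67.3 CPM. In macrophage-like cells H2-Oa was at 1.12 and 0.925 CPM and H2-Ob at 8.80 and 8.33 CPM, so DO transcripts were near 0 in cells that held DM. The highest gene of the lysosomal group was Ctsb in macrophage-like cells (2147 and 1579 CPM) and Ifi30 in type 2 dendritic-like cells (995 and 1453 CPM). Among the class I genes, which most cells make, B2m was at 4140.5 and 2898 CPM in nonclassical monocyte-like cells, above the 1521 and 1576 CPM of type 2 dendritic-like cells, while between the libraries B2m was the lower in KO monocyte-like cells and the median log2 ratio of the 6 class I genes there was -0.405. Ifng, whose product induces Ciita, had no UMI in dendritic-, B- or monocyte-like cells.

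The genes most like the members across the 24 clusters of the control library, by Pearson's r of log2(CPM + 10) with the mean of the 8 members among 5809 genes, were Fcgr2b (0.964), Ly86 (0.961), Fgd2 (0.958), Pld4 (0.951), Rassf4 (0.937), Ryr1 (0.929), Rnase6 (0.926), Cd180 (0.920), Clec12a (0.916) and Batf3 (0.910). In the KO library Pld4, Ly86, Cd180, Fgd2, Rnase6 and Fcgr2b ranked 2, 3, 4, 5, 7 and 8, while Clec12a ranked 43. The clusters share a library and differ in size, and the likeness is a description.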

How the data were processed

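The authors deposited, for each library, the gene-by-barcode matrix of raw UMI counts, made with Cell Ranger 3.0.1 on mm10 per the submitters' processing notes, which also name Seurat 3.1.5 and R 4.0.1. No normalised file was used, and the deposited counts were taken as they stand. The control library held 8522 barcodes and 42859406 UMIs, and the KO library 2730 and 13821581. A minimum of 500 detected genes and a maximum of 10% mitochondrial UMIs left 3881 and 958 barcodes, and the highest Scrublet scores (scanpy 1.11.5), 0.8% per 1000 barcodes, were removed as doublets (265 and 21). Counts per cell were scaled to 10000 and logged, and 2000 variable genes without the class II genes, 30 components and 20 neighbours entered Leiden clustering (leidenalg 0.10.2) at resolution 0.5. Clusters were named from marker lists, and parts of the naming rule were set after the clusters had been seen. Named clusters accounted for 87.7% of the control library's cells and 84.1% of the KO library's.

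UMIs were summed per class. Levels carry exact Poisson intervals, ratios the exact conditional binomial interval, and shares the Clopper-Pearson interval (95%), all for counting error only. Cells are not replicates, so no p-value is given. Counts under 3 UMIs were set to 3 in medians, and a ratio with at most 3 UMIs in both libraries was left out. Genes with at least 50 UMIs over both libraries entered the counts over all genes, and 2-fold was the size looked for. The scripts were tested on simulated data. edgeR 4.0.16 was used for scaling factors only. The 8 members, the marker and pathway lists and the rule for named genes (all members, each pathway gene past 2-fold or highest in its group, and the 10 genes most like the members) were chosen with earlier results of these data known. Alternatives covered the cell filter, doublets, clustering, scaling, cell weighting and leaving out cells. Promoter letters were read from RefSeq windows.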

Additional observations from a re-analysis of the deposited data

Results flagged for a closer look

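For 4 genes the KO to control difference had opposite directions in macrophage-like and nonclassical monocyte-like cells, with both counting intervals away from 0. The log2 ratio of H2-Aa was 0.18 in macrophage-like cells and -1.28 in nonclassical monocyte-like cells. For H2-Ab1 it was 0.27 and -1.42, for H2-Eb1 0.34 and -1.31, and for Cd74 0.35 and -1.12. With 1 library per genotype, the difference between the classes was not tested.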

How the results depend on the processing

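No paired analysis was possible because each genotype had 1 library. Member ratios were rerun only in the antigen-presenting classes, and the ratios of single pathway genes were not rerun. In those classes the ratios past 2-fold were all in nonclassical monocyte-like cells. None of them changed sign under the alternatives that kept this class, though some of these, such as another seed, could hardly have changed it. Smaller ratios whose counting interval left out 0 did change sign. Without the 10 cells with the most member UMIs, H2-Ab1 (0.07), Cd74 (0.04) and H2-Eb1 (0.18) in type 2 dendritic-like cells became -0.25, -0.22 and -0.09, and H2-Ab1 (0.06) and Cd74 (0.20) in type 1 became -0.12 and -0.0047. In each class the 10 cells were a larger part of the KO cells than of the control cells, so this setting was unequal between the libraries. With each cell weighted equally H2-Ab1 also fell below 0 in both types. In type 2, H2-Ab1 and Cd74 were -0.015 with 2 times the doublets removed and H2-Aa (-0.05) was 0.04 at resolution 0.3, with 3 other alternatives above 0. Macrophage-like Ctss (0.13) was -0.07 in cluster 2 alone. The median log2 ratio of macrophage-like cells (0.23) was 0.37 with a looser filter (200 genes, 20% mitochondrial UMIs), 0.51 without doublet removal, 0.31 with 2 times the doublets removed, 0.33 with TMM or median-of-ratios factors (which moved the median of all genes by 0.10 and 0.11), 0.39 with each cell weighted equally, and 0.50 in cluster 1 and -0.012 in cluster 2 alone. The looser filter, no doublet removal and 2 times the doublets removed left smaller macrophage-like classes than the main 649 control and 94 KO cells. These classes held 491 and 32, 375 and 33, and 438 and 44 cells in that order, so their medians are of other sets of cells. The median of nonclassical monocyte-like cells (-0.93) was 0.017 with equal weights, -2.70 without the 10 cells with the most member UMIs and -0.30 in cells under 10000 CPM, the last 2 over 7 members. Without such cells it was -0.031 in type 1 and -0.23 in type 2 dendritic-like cells. The clusters alone, the cells under 10000 CPM and the epithelial cluster without its largest cell were added after seeing the data.

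The type 2 dendritic to macrophage difference (1.02 control, 0.79 KO) was 1.28 and 0.87 without doublet removal, and in the control 1.16 with 2 times the doublets removed, 0.83 at resolution 0.3 and 1.06 with equal weights. The non-immune to antigen-presenting difference (-7.36 and -8.36) was -6.45 and -7.86 with the looser filter and, in the control, -6.11 without doublet removal. The number of pathway genes past 2-fold became 2 in macrophage-like cells with the looser filter, without doublet removal, at resolution 0.3 and with class II genes in the clustering. It became 2 in type 1 dendritic-like cells with the looser filter and 3 at 20 UMIs, and 1 in B-like cells with the looser filter or without doublet removal and 4 at 20 UMIs. In type 2 dendritic-like cells it became 1 without doublet removal, with 2 times the doublets removed, at resolution 1.0 and with class II genes in the clustering. At 20 UMIs, 812 genes were past 2-fold in monocyte-like, 582 in type 1, 704 in type 2 and 615 in B-like cells, against 308, 143, 277 and 121. The fibroblast-like H2-Aa shares were 34.6% and 25% as counted. Of the 10 genes most like the members, 3 were kept with the looser filter, 4 with a stricter filter (1000 genes, 5%), without doublet removal or with 2 times removed, and 5 at resolution 0.3. The cause of these shifts was not tested.

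No nonclassical monocyte-like class was found with the looser filter, without doublet removal, with 2 times the doublets removed or at resolution 0.3, and fewer than 20 KO cells were left with the stricter filter. Type 2 dendritic-like cells were not found under either filter, nor B-like cells under the stricter one. The stricter filter also left only 8 KO macrophage-like and 16 KO type 1 dendritic-like cells, under the 20 asked. Member ratios were therefore not rerun in any antigen-presenting class there, nor in macrophage-like cells at resolution 1.0, with 18 KO cells. Depth limits Ciita most, with 5 KO monocyte-like UMIs.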
